A study of Homo sapiens with 15 samples.

Results

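The transcriptome of A549 cells given a match polyamide together with dexamethasone was compared with that of cells given dexamethasone alone. A549 is a single established line of human lung adenocarcinoma epithelial cells. The arrays were taken by their titles, 3 for each of these groups, so 6 of the 15 arrays of the series carry the comparison. Cells of the control group received dexamethasone, a synthetic glucocorticoid, for 6 hours, and cells of the match group received the polyamide for 48 hours and dexamethasone for 6 hours. Both groups thus carried the hormone, and both grew in F12K medium with charcoal-treated serum, which is depleted of steroids. Non-treated cells (3 arrays) and cells given mifepristone, a glucocorticoid receptor antagonist, with dexamethasone (3 arrays) are quoted for their levels only. The labels give no dose, no vehicle and no chemical structure of the polyamide. Total RNA was hybridized to Affymetrix arrays, which read each gene with 1 or more probe sets. Whether each array stands for its own culture is not stated, so the p-values describe the scatter of these arrays alone, and that scatter may be technical. A fall of a transcript in a whole culture cannot be told apart from a loss of the cells that carry it.

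Glucocorticoids act through the glucocorticoid receptor, a nuclear receptor that moves into the nucleus on binding hormone and attaches as a dimer to the glucocorticoid response element. Genes near such elements rise within hours, and many inflammatory genes are repressed by the same receptor. Pyrrole-imidazole polyamides are synthetic ligands of the DNA minor groove whose paired rings read the sequence of the base pairs beneath them. The match compound was designed against the response element. Copies of so short a target can occur in promoters, introns and intergenic DNA alike, and binding to them was not measured on these arrays.

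The published target of such a polyamide is a hexamer of the form NGNNCN whose open positions hold adenine or thymine. The response element sequence TGTTCT, which reads AGAACA on the opposite strand, has that form. Promoter windows of 4 genes are shown because they place that hexamer beside opposite responses. They are the 250 bases before the annotated start, on the gene's own strand, from RefSeq (GRCh38.p14), with every hexamer of the pattern in capitals. FKBP5 (chr6:35728584-35728833, minus strand) and TSC22D3 (chrX:107775989-107776238, minus strand) are induced by the hormone, CCL20 (chr2:227813592-227813841, plus strand) is a chemokine gene, and ABTB3 (chr12:107318184-107318433, plus strand) was the most lowered gene.
FKBP5: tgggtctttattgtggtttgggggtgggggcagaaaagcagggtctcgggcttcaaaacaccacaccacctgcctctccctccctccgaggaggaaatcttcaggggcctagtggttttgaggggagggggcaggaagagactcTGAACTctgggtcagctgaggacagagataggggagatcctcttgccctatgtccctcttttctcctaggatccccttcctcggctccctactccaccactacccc
TSC22D3: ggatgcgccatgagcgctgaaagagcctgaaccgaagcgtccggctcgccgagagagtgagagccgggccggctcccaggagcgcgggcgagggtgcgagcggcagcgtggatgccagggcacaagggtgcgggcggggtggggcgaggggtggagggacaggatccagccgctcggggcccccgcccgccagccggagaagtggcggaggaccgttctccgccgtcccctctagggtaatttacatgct
CCL20: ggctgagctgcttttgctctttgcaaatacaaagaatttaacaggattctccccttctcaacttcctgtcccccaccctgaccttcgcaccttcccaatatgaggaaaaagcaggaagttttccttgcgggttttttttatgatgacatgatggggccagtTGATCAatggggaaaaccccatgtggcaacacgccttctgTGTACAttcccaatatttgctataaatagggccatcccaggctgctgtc
ABTB3: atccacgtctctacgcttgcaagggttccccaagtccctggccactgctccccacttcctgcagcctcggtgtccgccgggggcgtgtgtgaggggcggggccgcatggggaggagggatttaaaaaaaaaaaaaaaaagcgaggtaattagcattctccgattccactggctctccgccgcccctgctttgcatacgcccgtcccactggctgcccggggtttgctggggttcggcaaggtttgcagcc
FKBP5, which fell, held 1 hexamer, TGAACT, that begins 106 bases before the start. CCL20, which rose, held 2, TGATCA at 89 and TGTACA at 49 bases. The windows of TSC22D3 and ABTB3, which both fell, held none. Each gene was read at 1 annotated start, and starts of its other transcripts were not searched.

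All 3 arrays of each group resembled each other more than those of the other group. On log2 values of the 39744 probe sets tested, r between 2 arrays was 0.977 to 0.983 within a group and 0.942 to 0.948 between the groups. The ratio of the ACTB control probe sets at the transcript's 3' and 5' ends, a sign of RNA integrity, was 1.32 to 1.41 with dexamethasone and 1.32 to 1.72 with match polyamide. Its part in the results was not tested. Changes are given below as differences of mean log2(signal + 16), match polyamide plus dexamethasone minus dexamethasone, with their standard error (SE). Markers of the line were present: keratin 18 (KRT18) had signals of 9394 to 9713 with dexamethasone and 8251 to 8539 with match polyamide. Of 6 leukocyte markers 2 were tested and of 5 endothelial markers 1, and none of these was called. Of 6 fibroblast markers 5 were tested, and COL1A1, a fibrillar collagen, was higher by 1.01 (SE 0.11) at signals of 110, 95.5 and 113 against 251, 234 and 207.

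The match polyamide group differed from dexamethasone alone in 30.8% of the probe sets measured. Of 39744, 12252 passed the test (limma, adjusted p under 0.05), 6312 higher and 5940 lower. Among 16358 genes, each read by 1 probe set, 3521 were higher (21.5%), 2846 were lower (17.4%) and 9991 did not pass. The median gene moved by 0.05 on the log2 scale. Large changes ran mainly downward: of 1222 genes changed at least 2-fold, 783 (64.1%) were lower and 439 higher, and at 4-fold or more 142 were lower and 25 higher. With scaling on the hybridization spike-ins the balance at 2-fold turned: 1645 probe sets were higher and 1024 lower, against 814 and 1636 under quantile normalization. The signals of the groups did not overlap for 6136 of the 6367 genes called. Calls and separation rest on the same arrays, so this count is no separate support. The share among all tested genes was not counted.

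The balance of rises and falls depended on how the arrays were brought to one scale. Called probe sets were higher in 51.5% of cases under quantile normalization and in 53.5% as deposited. That share was 34.3% after median centring (3774 higher, 7235 lower) and 75.5% after scaling on the hybridization spike-ins (8212 higher, 2668 lower). Those spike-ins had mean signals of 970.2 to 1248 on the dexamethasone arrays and 849.3 to 1026 on the match arrays. Spike-in scaling moved the median gene from 0.05 to 0.26, so changes are best read against the median of all genes, and small changes are given below with that limit. In the plot of change against signal the falls reach further from 0 than the rises at most signal levels.

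**Figure D1:**
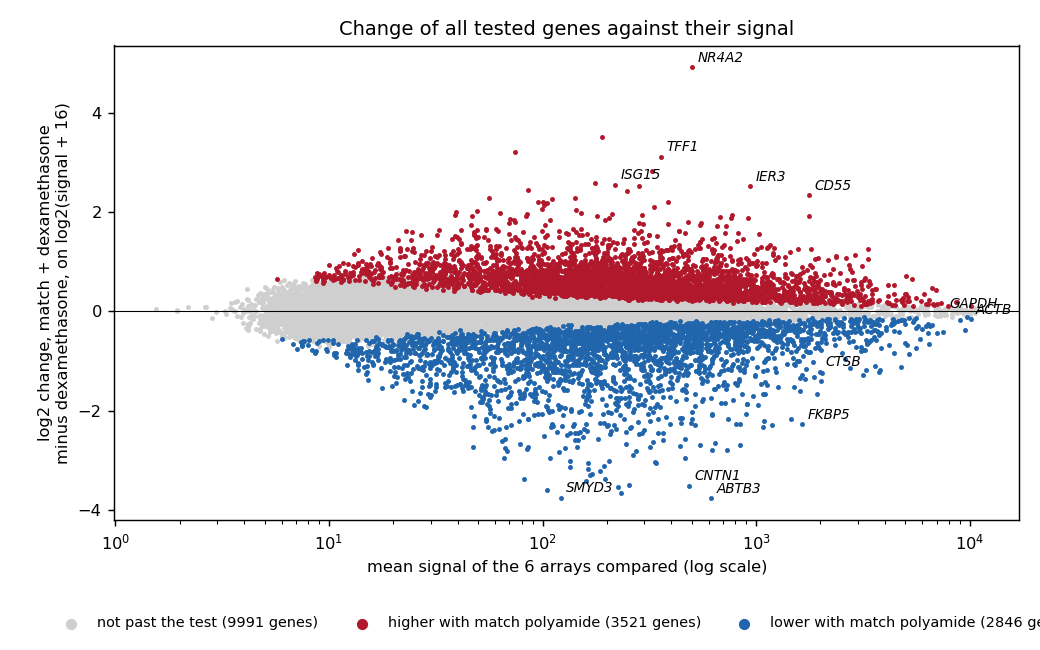
Log2 change of each of 16358 genes (vertical axis, match polyamide plus dexamethasone minus dexamethasone, on log2(signal + 16)) against its mean signal over the 6 arrays (horizontal axis, log scale), with 3521 genes called higher in red, 2846 called lower in blue and the others in grey. Falls such as ABTB3 (-3.76) and SMYD3 (-3.75) reach below -3, and NR4A2 (4.92) is the highest point.

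Genes that glucocorticoids induce fell more often than they rose. Of 37 list members tested, 20 were lower, 4 higher and 13 not past the test, with a median of -0.34 against 0.05 for all genes. FKBP5, a co-chaperone that lowers the receptor's affinity for hormone, had signals of 2659, 2711 and 2828 with dexamethasone and 509, 586 and 566 with match polyamide. The match arrays lay far below the dexamethasone arrays and close to the mifepristone arrays (594, 560 and 599), and still above non-treated cells (213, 229 and 251). FKBP5 fell by 2.27 (SE 0.07), which is 4.83-fold (limma adjusted p = 7.24e-15), and its other 2 probe sets stood at -2.35 and -2.41.

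The size of the fall differed widely among the hormone's targets. TFCP2L1, an epithelial transcription factor, went from 621, 567 and 607 to 101, 82.3 and 108, so that it fell by 2.44 (SE 0.11). CIDEC, a lipid droplet protein, fell by 2.44 (SE 0.13) and CEBPD, a C/EBP transcription factor, fell by 1.21 (SE 0.07). TSC22D3, whose product GILZ dampens inflammation, kept most of its induced signal: 1105, 1053 and 1145 with dexamethasone, 639, 690 and 681 with match polyamide and 133, 119 and 118 in non-treated cells. It fell by 0.70 (SE 0.09), which passed the test, and the groups did not overlap.

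DNAJC15, a mitochondrial co-chaperone that is not in the list of hormone-induced genes, was among the 25 most lowered genes of all at -3.60 (SE 0.21), with signals of 244, 196 and 180 against 0.84, 1.71 and 4.21, and those of the match arrays lay within the range of non-treated cells or below it (0.98, 11.8 and 0.97). Of the list itself, 4 members were higher. CAVIN2, a caveolar coat protein, rose by 0.60 (SE 0.13), from 1467, 1176 and 1114 to 2200, 1678 and 1844. EDN1, the vasoconstrictor peptide endothelin 1, rose by 1.41 (SE 0.08), from 400 to 467 to 1110 to 1301. It stands in the list of induced genes, but its signal in non-treated cells (941 to 1096) was above that with dexamethasone. TNFAIP3, an inhibitor of NF-kappaB signalling, rose by 0.55 (SE 0.14). ERRFI1, an inhibitor of the EGF receptor, was higher by 0.25 (SE 0.05), a call lost after median centring (0.09, adjusted p = 0.444) and as deposited (0.30, adjusted p = 0.137).

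Other familiar targets changed by less than FKBP5 or did not pass. DUSP1, a phosphatase of MAP kinases, was lower, with a log2 change of -0.21 (SE 0.05, adjusted p = 0.00145), a call lost with spike-in scaling (0.01, adjusted p = 0.961), on the deposited signals (-0.21, adjusted p = 0.291) and without a variance trend (adjusted p = 0.0605). KLF9, a Kruppel-like repressor, stood at -0.40 with a 95% interval of -0.79 to -0.01 and did not pass, except without a variance trend (adjusted p = 0.0391). HSD11B2, which inactivates cortisol, was lower, with a log2 change of -0.58 (SE 0.21, adjusted p = 0.0414), a call lost in 12 of the alternatives. SGK1, a kinase that raises sodium uptake, stood at 0.26 (0.05 to 0.46) and did not pass, although it did in 6 alternatives. PER1 had no tested probe set that carries its symbol alone.

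Metallothioneins, small cysteine-rich proteins that bind zinc and copper and that glucocorticoids induce, had the lowest median of all lists (-1.30). Of 7 tested, 5 fell, 0 rose and 2 did not pass. MT1X had signals of 2752, 2959 and 3035 with dexamethasone and 1011, 1188 and 1082 with match polyamide, without overlap, against 712, 694 and 772 in non-treated cells. It fell by 1.40 (SE 0.08), MT1H fell by 1.86 (SE 0.13), MT1F fell by 1.90 (SE 0.16) and MT2A fell by 1.28 (SE 0.13). Metallothionein genes are near-identical copies, so their probe sets can share transcripts.

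The receptor itself and part of its co-activators were lower. NR3C1, which encodes the glucocorticoid receptor, had signals of 1137, 935 and 1068 with dexamethasone and 671, 591 and 587 with match polyamide. It fell by 0.75 (SE 0.08), and the groups did not overlap. Of 5 probe sets, 3 fell by 0.66 to 0.75 and 2 did not pass (-0.17 and -0.18). The co-activators NCOA2 and NCOA1, which bind hormone-loaded receptors, fell, with log2 changes of -1.73 (SE 0.09) and -1.17 (SE 0.13). STIP1, a co-chaperone that hands the receptor to HSP90, rose by 0.51 (SE 0.08). Over the list of steroid receptors and co-regulators 6 of 19 rose (31.6%, against 21.5% of all genes), 5 fell (26.3%, against 17.4%) and 8 did not pass.

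**Figure D2:**
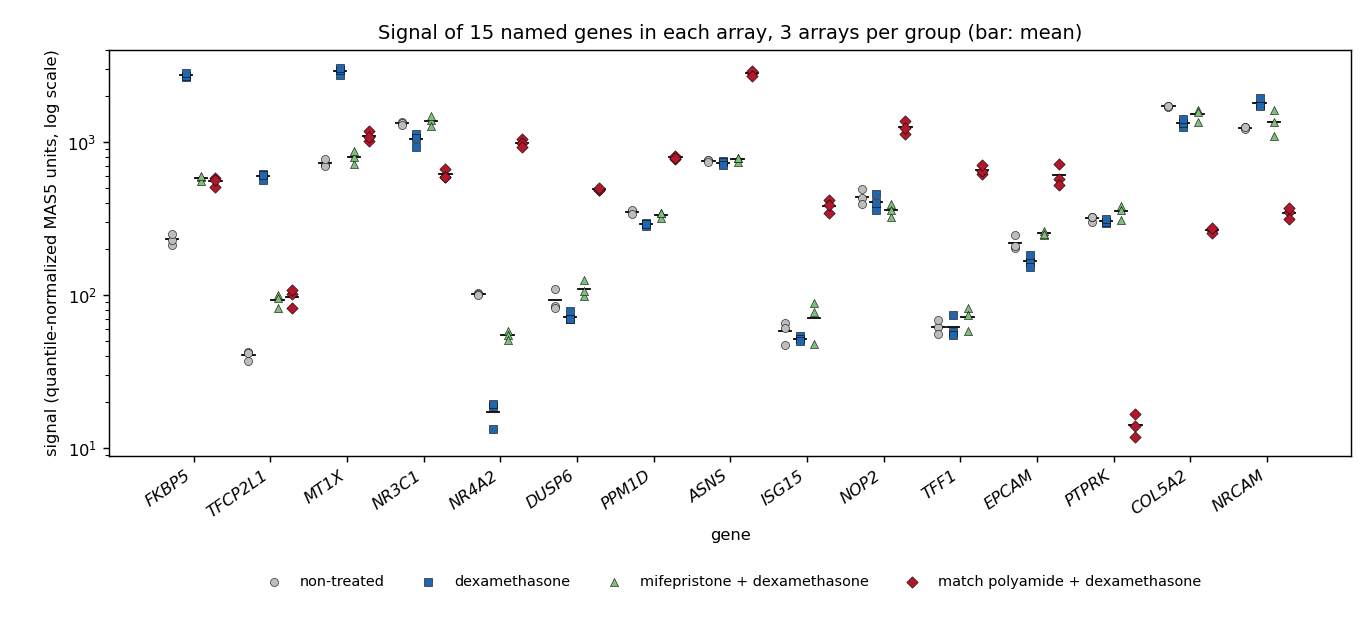
Signal of 15 genes (vertical axis, quantile-normalized, log scale) in each array of 4 groups of 3, with a bar at each mean. Match arrays (red) lie below the dexamethasone arrays (blue) for FKBP5, TFCP2L1, MT1X, NR3C1, PTPRK, COL5A2 and NRCAM and above them for the other 8 genes.

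NR4A2, an orphan nuclear receptor switched on by many stimuli and the most raised gene of all, went from 18.6, 13.3 and 19.3 with dexamethasone to 1040, 981 and 934 with match polyamide. The match arrays were also far above non-treated cells (104, 102 and 99.3). The rise of 4.92 (SE 0.11) is 30.3-fold on the log2(signal + 16) scale, and all 3 of its probe sets rose by 4.77 to 4.92. Its relative NR4A3 rose by 1.94 (SE 0.24), while the probe set that reads NR4A1 stood at 0.47 (0.01 to 0.93) at low signals and did not pass. With the stricter filter, which removes it, another probe set of NR4A1 stood at 3.65 (limma adjusted p = 1.41e-11).

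Immediate early transcription factors rose together, 15 of 22 with 0 lower and 7 not past the test (median 0.63). ATF3, a stress-induced bZIP repressor, went from 15.7, 15.3 and 15.8 to 156, 155 and 157, a rise of 2.44 (SE 0.14). The AP-1 subunit FOSL1 rose by 2.07 (SE 0.12), the small MAF protein MAFF by 1.95 (SE 0.09), and the early response genes IER2 and IER5 by 1.74 (SE 0.07) and 1.29 (SE 0.06). FOS and EGR1, the best known members, did not pass: FOS stood at 0.11 (-0.25 to 0.47) and EGR1 at 0.64 (0.11 to 1.17) at signals of 32.4, 18.3 and 13.9 with match polyamide, and EGR1 passed in 6 alternatives.

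Genes that MAP kinase signalling induces to restrain itself rose in 11 of 19 cases, with 1 lower and 7 not past the test (median 0.62). DUSP6, a phosphatase of ERK, went from 69.3, 78 and 69.4 to 484, 487 and 502, a rise of 2.52 (SE 0.11). DUSP4 rose by 1.89 (SE 0.08) and DUSP5 by 1.39 (SE 0.08). IER3, a short-lived survival protein, went from 251, 270 and 278 to 1688, 1540 and 1610, a rise of 2.53 (SE 0.07). RASD1, a Ras-like GTPase that glucocorticoids induce in some tissues, rose by 3.52 (SE 0.21). The member that went the other way, DUSP10, was lower, with a log2 change of -0.54 (SE 0.15) and spread arrays, a call lost in 4 alternatives.

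The 25 most raised genes also included secreted growth factors and surface proteins. EREG, an EGF receptor ligand, rose by 2.20 (SE 0.10), from 124 to 130 to 579 to 696, and PGF, placental growth factor, by 2.29 (SE 0.22). That value of PGF comes from a probe set of low signal (means of 9.315 and 102.6). Another probe set of PGF, with means of 338.6 and 388.2, did not pass (0.18). CD55, which shields cells from complement, went from 623, 528 and 557 to 3170, 3001 and 2672, a rise of 2.34 (SE 0.07). PTPRH, a receptor tyrosine phosphatase, rose by 2.03 (SE 0.23) and CORO1A, an actin-binding coronin, by 2.00 (SE 0.23). The transcription factors HES1, a Notch effector, and KLF11 rose by 2.18 (SE 0.18) and 2.20 (SE 0.14).

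Mucins, trefoil peptides and secreted lung proteins changed about as often as all genes. Of 17, 4 were higher (23.5%, against 21.5% of all genes), 3 lower (17.6%, against 17.4%) and 10 not past the test. TFF1, a secreted trefoil peptide of the gastric mucosa, went from 57, 54.6 and 73.5 to 621, 643 and 705, a rise of 3.12 (SE 0.12). MUC13, a membrane mucin, rose by 1.26 (SE 0.16), and the antiproteases SLPI and PI3 by 0.69 (SE 0.12) and 0.75 (SE 0.19). The mucins MUC5B and MUC1 and the disulphide isomerase AGR2 were lower, with log2 changes of -0.97 (SE 0.28), -0.76 (SE 0.17) and -0.40 (SE 0.09), the last a call lost as deposited (-0.36, adjusted p = 0.112) and with spike-in scaling (-0.14, adjusted p = 0.593). Outside that list, GKN2, a gastrokine, rose by 2.27 (SE 0.28). CSTA, a cystatin of stratified epithelia, rose by 2.14 (SE 0.16). NEFL, the neurofilament light chain, went from 32.1, 32.3 and 49.9 to 274, 237 and 230, and BEX2 from 61.6, 69.4 and 68.7 to 429, 424 and 436. They rose by 2.29 (SE 0.13) and 2.43 (SE 0.11). Of the 10 BEX and related genes tested, BEX2 alone rose, 2 were lower and 7 did not pass. PIERCE2, LRATD2, CHAC1 and ND6 complete the genes at the top of the ranking, at 2.82, 2.59, 2.03 and 2.10.

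Cytokines and the NF-kappaB subunits rose in a subset. Of 20 cytokines and inflammatory mediators, 9 rose, 3 fell and 8 did not pass (median 0.35). CCL20, a chemokine for dendritic cells and lymphocytes, was at 1.87, 1.07 and 1.31 with dexamethasone and at 185, 128 and 129 with match polyamide, and also near the floor in non-treated cells (2.13, 0.93 and 1.37). PTGS2, the inducible cyclooxygenase, rose by 1.78 (SE 0.10) and the neutrophil chemokine CXCL3 by 1.66 (SE 0.17). CXCL2 was higher by 1.83 (SE 0.13), but the probe set that stands for it without a filter did not pass (0.00, adjusted p = 0.998). CCL2, a monocyte chemokine, fell by 1.02 (SE 0.18), and PLAU, urokinase, fell by 0.99 (SE 0.14).

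Among NF-kappaB genes 10 of 18 rose, 1 was lower and 7 did not pass. RELB and NFKB2, the subunits of the non-canonical pathway, rose by 2.21 (SE 0.17) and 1.92 (SE 0.14), with RELB going from 19.8, 27.3 and 24.3 to 170, 166 and 165. REL rose by 1.09 (SE 0.13) and the nuclear inhibitor NFKBIZ by 0.78 (SE 0.10). NFKBIA, the main cytoplasmic inhibitor and a hormone-induced gene, was lower, with a log2 change of -0.34 (SE 0.08), a call lost as deposited (-0.31, adjusted p = 0.105) and with spike-in scaling (-0.10, adjusted p = 0.7).

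Targets of the tumour suppressor p53 were the most uniformly raised list: 24 of 27 rose, 1 was lower and 2 did not pass (median 0.93). MDM2, the ubiquitin ligase of p53, had signals of 358, 334 and 301 with dexamethasone and 732, 1038 and 790 with match polyamide. It rose by 1.31 (SE 0.11), and 5 of its 9 probe sets passed, all higher. PPM1D, a phosphatase of p53, went from 284, 296 and 293 to 817, 776 and 792, a rise of 1.40 (SE 0.07). The kinase PLK2 rose by 1.49 (SE 0.07), the death receptor FAS by 1.17 (SE 0.09) and SERTAD1 by 1.31 (SE 0.09).

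The cell-cycle inhibitor among these targets moved less. CDKN1A, which encodes p21, went from 647, 699 and 678 to 773, 857 and 947. Its rise of 0.34 (SE 0.08) was lost after median centring (0.18, adjusted p = 0.226) and as deposited (0.38, adjusted p = 0.0933). CDKN1C, a related inhibitor that dexamethasone induces, fell by 1.71 (SE 0.12), from 362 to 436 to 101 to 125. SPATA18, a mitochondrial quality-control gene, was lower, with a log2 change of -0.53 (SE 0.17), a call lost in 6 alternatives, 3 of them with 1 array left out. In the BCL2 family 9 of 19 rose, 1 was lower and 9 did not pass. The pro-apoptotic genes PMAIP1, BAX and BCL2L11 rose by 1.38 (SE 0.14), 1.06 (SE 0.18) and 0.65 (SE 0.13), and the pro-survival BCL2A1 by 1.37 (SE 0.20).

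Genes of the ATF4 program, which answers amino acid shortage and other stresses, rose in 20 of 26 cases with 3 lower and 3 not past the test (median 0.83). ATF4 itself went from 1987, 2285 and 2233 to 4229, 4623 and 4759, a rise of 1.06 (SE 0.07). ASNS, asparagine synthetase, went from 746, 742 and 708 to 2816, 2934 and 2689, a rise of 1.92 (SE 0.06) without overlap. MTHFD2, of mitochondrial folate metabolism, rose by 1.27 (SE 0.05) and PSAT1, of serine synthesis, by 0.92 (SE 0.05). SLC7A5, a leucine transporter, went against the list at -0.51 (SE 0.06), which spike-in scaling lost (-0.26, adjusted p = 0.21).

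The enzymes that charge transfer RNAs rose with it. Of 17 aminoacyl-tRNA synthetases 12 rose, 2 were lower and 3 did not pass. Those for cysteine (CARS1), tyrosine (YARS1), glycine (GARS1) and asparagine (NARS1) rose by 1.26 (SE 0.07), 0.86 (SE 0.07), 0.83 (SE 0.07) and 0.63 (SE 0.06). FARSB, the beta subunit for phenylalanine, fell by 0.75 (SE 0.07), while the alpha subunit FARSA rose by 0.87 (SE 0.12). Amino acid transporters rose in part (8 of 22, 3 lower), led by SLC3A2 at 0.58, SLC7A1 at 0.60 and SLC1A5 at 0.70.

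Chaperones of the endoplasmic reticulum moved the other way. Of 22 tested, 14 fell, 2 rose and 6 did not pass (median -0.33). The disulphide isomerase PDIA4 fell by 0.95 (SE 0.10), the co-chaperone DNAJC3 fell by 0.81 (SE 0.10) and SEC61B, of the protein-conducting channel, fell by 0.69 (SE 0.06). XBP1, a transcription factor of the unfolded protein response, rose by 0.54 (SE 0.09), and the sensor kinase EIF2AK3 by 0.48 (SE 0.09).

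Cytosolic heat shock proteins and NRF2 targets were mixed, and their medians changed side of the all-gene median with the scaling. DNAJB4 rose by 1.29 (SE 0.08) and HSPB1, a small heat shock protein, fell by 0.72 (SE 0.07). Of 22 NRF2 targets 8 rose, 6 fell and 8 did not pass, with SRXN1, sulfiredoxin, at 1.19 and GCLM, of glutathione synthesis, at 0.78, against ME1, malic enzyme, at -1.46 and the export pump ABCC3 at -1.50.

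Interferon-stimulated genes had the highest median of all lists (0.96): 16 of 25 rose, 0 were lower and 9 did not pass. ISG15, a ubiquitin-like protein, went from 54, 51.3 and 50.2 to 346, 416 and 389, a rise of 2.55 (SE 0.16). OAS1, which makes an activator of RNase L, rose by 1.89 (SE 0.07), IFIT3 by 1.51 (SE 0.12) and the exonuclease ISG20 by 1.54 (SE 0.14). Antigen presentation rose alongside, in 11 of 16 genes with 0 lower and 5 not past the test (median 0.59). The peptide transporter TAP1 rose by 1.14 (SE 0.12), and the immunoproteasome subunits PSMB9, PSMB8 and PSMB10 by 1.08 (SE 0.12), 1.00 (SE 0.13) and 0.68 (SE 0.12).

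Factors that assemble ribosomes rose in 28 of 35 cases, with 0 lower and 7 not past the test (median 0.65). NOP2, a nucleolar methyltransferase of ribosomal RNA, went from 457, 358 and 401 to 1136, 1373 and 1233, a rise of 1.59 (SE 0.10). NOB1, an endonuclease that matures the small subunit RNA, rose by 1.47 (SE 0.07), UTP14A by 1.28 (SE 0.08) and NOLC1 by 1.26 (SE 0.08). RNA polymerases I and III, which make ribosomal and transfer RNA, rose in 17 of 29 genes with 0 lower (median 0.42). POLR1D counts as higher there by its strongest probe set (1.04), but 2 others were lower (-1.09 and -1.07). POLR1C rose by 1.18 (SE 0.09), POLR3C by 0.98 (SE 0.08) and POLR1B by 0.68 (SE 0.08).

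Transcripts that host small nucleolar RNAs, the guides of ribosomal RNA modification, rose in 4 of 7 cases with 0 lower (median 0.72). EPB41L4A-AS1 rose by 1.45 (SE 0.09), ZFAS1 by 0.94 (SE 0.07), SNHG32 by 0.79 (SE 0.08) and SNHG17 by 0.72 (SE 0.06). Translation initiation factors rose in 19 of 33 cases with 1 lower (median 0.23), and after median centring 13 were higher and 3 lower. EIF2S2, EIF3J, EIF3D and EIF6 rose by 0.61, 0.61, 0.69 and 0.59. The ribosomal proteins themselves stayed near the median gene: 10 of 49 were higher and 0 lower, the other 39 did not pass the test, and after median centring 0 were called.

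**Figure D3:**
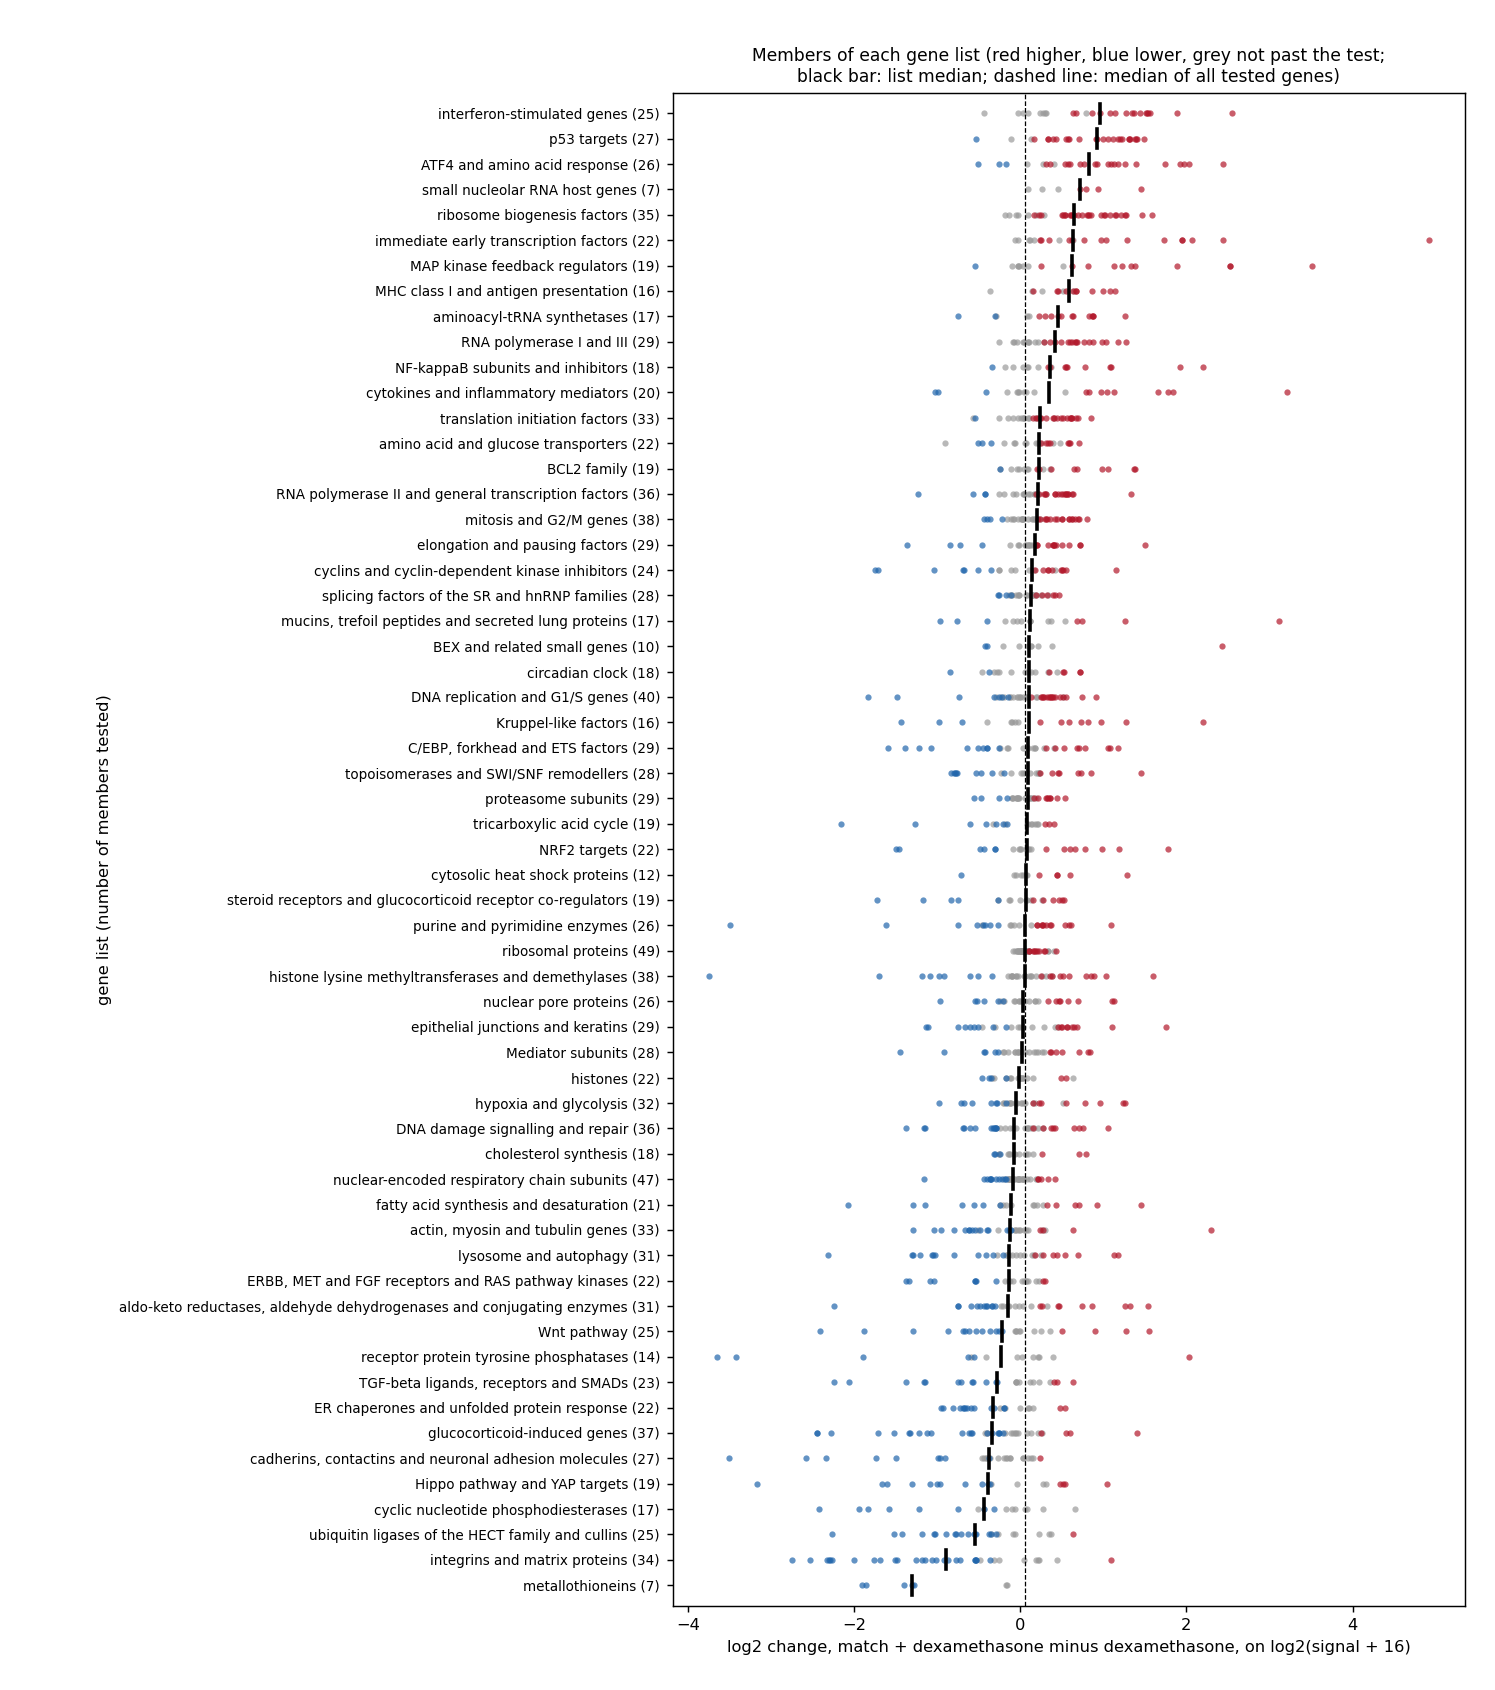
Log2 change of the tested members of each gene list (horizontal axis, match polyamide plus dexamethasone minus dexamethasone), with lists ordered by their median (black bar) and the all-gene median of 0.05 dashed. Lists of interferon, p53, ATF4 and ribosome assembly genes lie to the right, and metallothioneins, matrix genes and HECT ligases to the left, with members on both sides in most lists.

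The machinery of RNA polymerase II was raised in part and held some marked opposites. Of 36 polymerase II subunits and general transcription factors 18 were higher and 4 lower, with 14 that did not pass, and the count after median centring was 9 higher and 6 lower. CDK7, the kinase of TFIIH, rose by 1.33 (SE 0.09), whereas MNAT1, which joins it in the same kinase complex, fell by 1.23 (SE 0.11). The gene spans are 42.6 kb for CDK7 and 235 kb for MNAT1. POLR2A, the largest subunit, was higher by 0.64 (SE 0.17), a call lost after median centring (0.46, adjusted p = 0.0543), and POLR2H rose by 0.58 (SE 0.07). Among elongation factors 14 of 29 were higher and 4 lower, and after median centring 4 higher and 5 lower. ELL3 rose by 1.50 (SE 0.14) and LEO1, which travels with the polymerase, by 0.72 (SE 0.09), while MLLT3 and AFF1 of the super elongation complex fell, with log2 changes of -1.37 (SE 0.14) and -0.84 (SE 0.08).

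Lists of co-activators and chromatin enzymes held members that went either way. Of 28 Mediator subunits 7 were higher (25%, against 21.5% of all genes), 6 lower (21.4%, against 17.4%) and 15 not past the test. MED26 and MED19 rose by 0.84 (SE 0.12) and 0.71 (SE 0.09), and MED13L, of the kinase module, and MED27 fell, with log2 changes of -1.45 (SE 0.10) and -0.92 (SE 0.10). Histone methyltransferases and demethylases counted 11 higher (28.9%) and 9 lower (23.7%) of 38. SMYD3, a SET-domain methyltransferase, was the second most lowered gene of all at -3.75 (SE 0.15), from 201, 283 and 234 to 5.57, 1.49 and 1.83, with the match arrays close to 0. KMT2C and EHMT1 fell, with log2 changes of -1.70 (SE 0.16) and -1.09 (SE 0.10), and the demethylase KDM2B rose by 0.79 (SE 0.09).

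Remodellers and topoisomerases counted 8 higher (28.6%, against 21.5% of all genes) and 9 lower (32.1%, against 17.4%) of 28. Among them were CHD2 at 1.46 and TOP1MT, the mitochondrial topoisomerase, at 0.85, against CHD9 at -0.79 and SMARCA1 at -0.75. Of the 26 genes in the nuclear pore list 8 were higher (30.8%) and 6 lower (23.1%), with NUP58 at 1.11 and NUP210 at -0.97. Those higher include nuclear protein 1 (1.13), a transcriptional regulator that is not a pore protein. Of 28 splicing factors of the SR and hnRNP families 18 did not pass. Shares of 21.4% higher and 14.3% lower stood against 21.5% and 17.4% of all genes. HNRNPF was higher by 0.42 (SE 0.07).

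Genes of mitosis were higher in 18 of 38 cases with 4 lower (median 0.20), and after median centring 11 higher and 6 lower. CCNB2, a mitotic cyclin, rose by 0.71 (SE 0.07), and the kinesins KIF23 and KIF2C by 0.66 (SE 0.07) and 0.81 (SE 0.09). Replication and G1/S genes were higher in 17 of 40 cases and lower in 7, but after median centring 5 higher and 12 lower. PRIM2 and POLA1, both subunits of the primase and polymerase alpha complex, fell, with log2 changes of -1.84 (SE 0.14) and -1.48 (SE 0.11), and their genes span 425 and 303 kb. CDC6, a licensing factor, rose by 0.48 (SE 0.07).

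In DNA damage signalling and repair 9 of 36 were higher, 13 lower and 14 not past the test. CHEK2, a checkpoint kinase, rose by 1.06 (SE 0.11) and PALB2, of recombination repair, by 0.75 (SE 0.10). XRCC4 and XRCC5, of end joining, fell, with log2 changes of -1.16 (SE 0.14) and -0.60 (SE 0.05). Of 22 histone genes 16 did not pass, with 9.09% higher and 18.2% lower, against 21.5% and 17.4% of all genes. H1-10 rose by 0.56 (SE 0.11). In a list of cyclins, their kinases, kinase inhibitors and retinoblastoma proteins the count was 10 higher and 7 lower of 24. CCNG2 and CCNG1 were higher by 1.16 (SE 0.11) and 0.56 (SE 0.05). Those lower were the inhibitor CDKN1C, kinases and retinoblastoma proteins. The kinase CDK19 had a log2 change of -1.75 (SE 0.12). A further probe set of CDK19 was lower too (-1.47), and one of weaker signal was higher, at 0.93 (SE 0.20).

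The falls were concentrated in genes that extend over a long stretch of the genome. The span of a gene is the distance from its start to its end in the RefSeq annotation, introns included, and 16334 genes have one. Genes lower at least 2-fold had a median span of 195 kb, against 15.5 kb for genes higher at least 2-fold and 26.9 kb for all genes. A span over 100 kb was found for 73% of the genes lower at least 2-fold, for 2.96% of those higher at least 2-fold and for 17.5% of all genes. The Spearman rank correlation between change and span was -0.31 across genes, a description since genes are not independent replicates.

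The share of genes called lower rose from bin to bin up to 500 kb, while the share called higher was largest between 5 and 10 kb. Genes under 5 kb (2160 genes) had a median change of 0.12, with 22.7% higher and 6.2% lower. From 5 to 10 kb (1931 genes) 28.8% were higher and 6.94% lower, with a median of 0.16, and from 10 to 20 kb (2771 genes) 28.3% and 7.22%, also with a median of 0.16. From 20 to 50 kb (4123 genes) 27.7% were higher and 12.6% lower. From 50 to 100 kb (2493 genes) the falls, 23%, passed the rises, 15.9%. Between 100 and 200 kb (1704 genes) 6.75% were higher and 40.5% lower, and between 200 and 500 kb (916 genes) 3.17% and 53.8%, with a median of -0.56. Of the 236 genes over 500 kb, 41.1% were lower and 1.69% higher, with a median of -0.28. With dexamethasone against non-treated cells, which shares the dexamethasone arrays, the bin medians lay between -0.04 and -0.02.

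**Figure D4:**
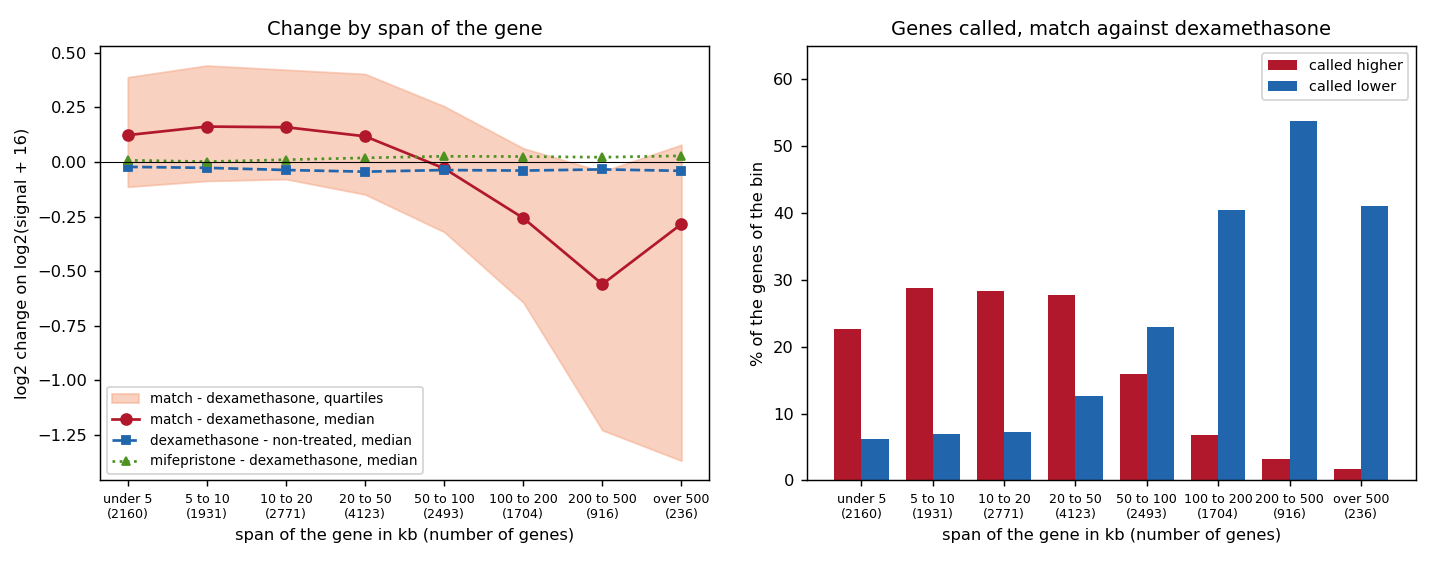
Left, median and quartiles of the log2 change (vertical axis) in 8 bins of gene span (horizontal axis, in kb, with the number of genes), with the medians of dexamethasone minus non-treated and of mifepristone minus dexamethasone, which share the dexamethasone arrays. Right, the share of each bin called higher or lower with match polyamide, which crosses between 50 and 100 kb and reaches 53.8% lower from 200 to 500 kb.

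The relation depended on the signal of the gene. Genes were split into 3 equal classes by mean signal over all 15 arrays. In the class with the highest signal, 87.8% of the 229 genes over 200 kb were lower and 3.93% higher (median -1.18), against 14.1% lower and 46.5% higher of the 2099 genes under 20 kb (median 0.19). In the middle class the shares lower were 74.4% and 6.12%. In the class with the lowest signal they were 13.2% and 1.73%, and signals there reached 28.7 at most, where the added 16 and the background leave little room for a fall. Of the 10 longest genes tested, 9 had signals in that low range and did not pass. The remaining one, PDE4D, a cyclic AMP phosphodiesterase of 1553 kb, had signals of 1296, 1319 and 1267 against 941, 960 and 955 and was lower, with a log2 change of -0.44 (SE 0.07), a call lost as deposited (-0.41, adjusted p = 0.0728) and with spike-in scaling (-0.20, adjusted p = 0.416). Its 6 probe sets differed: another was lower at -0.67 (SE 0.12), 1 was higher at 1.38 (SE 0.12), with mean signals of 105 against 298, and 3 did not pass.

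**Figure D5:**
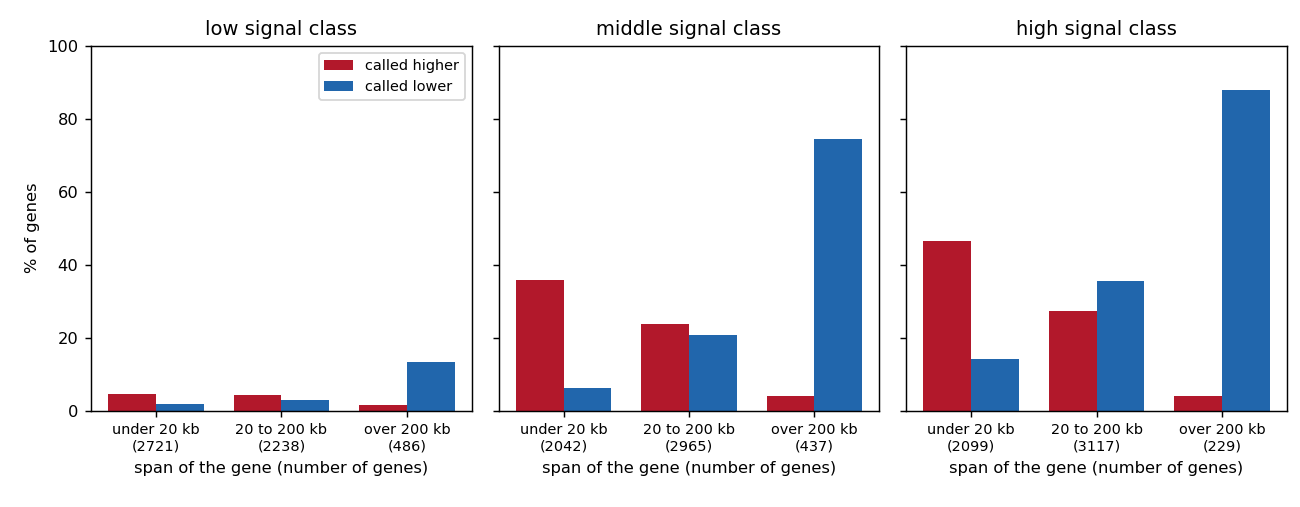
Share of genes called higher or lower with match polyamide (vertical axis, %) by gene span, in 3 equal classes of mean signal (low, middle and high), with the number of genes under each pair of bars. The share of genes over 200 kb called lower is 13.2%, 74.4% and 87.8% in the 3 panels.

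Of the 25 most lowered genes, 24 span more than 200 kb, and DNAJC15, at 90.6 kb, is the exception. ABTB3, at 341 kb on chromosome 12, went from 1116, 1136 and 1223 to 71.8, 68.8 and 70.4 and fell by 3.76 (SE 0.08), 13.6-fold. Non-treated cells lay between, at 709, 680 and 636. PTPRM and PTPRK, receptor tyrosine phosphatases that bind their own kind on neighbouring cells, fell, with log2 changes of -3.65 (SE 0.11) and -3.42 (SE 0.11), and PTPRK went from 298, 302 and 316 to 13.9, 16.7 and 11.8. ADK, adenosine kinase, fell by 3.50 (SE 0.15), from 447, 468 and 527 to 29.2, 18.9 and 37.7. DOCK4 went from 329, 301 and 336 to 19.2, 17.6 and 19.7 and fell by 3.28 (SE 0.12).

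The rest of these 25 genes serve unrelated tasks. TANC2, a synaptic scaffold, fell by 3.53, LPP, a focal adhesion protein, fell by 3.38 and IMMP2L, a mitochondrial inner membrane peptidase, fell by 3.38. The calcium channel subunit CACNA2D1 fell by 3.29, the Rab regulator TBC1D5 fell by 3.20, the exocyst subunits EXOC4 and EXOC6B fell, with log2 changes of -3.12 and -2.96, and the formin DIAPH3 fell by 3.02. The apoptosis factor FAF1, the splicing-related RSRC1, COMMD10, the RNA-binding BICC1 and THSD7A fell, with log2 changes of -3.12, -3.06, -3.06, -3.03 and -3.01. STX8, a syntaxin, LRBA, of vesicle traffic, and UBE2E2, a ubiquitin-conjugating enzyme, fell, with log2 changes of -2.95, -2.95 and -2.90. Their standard errors ran from 0.11 (LPP and BICC1) to 0.20 (EXOC4).

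Surface and matrix genes had a low median and also long spans. Of 34 integrins and matrix proteins 25 fell (73.5%), 1 rose and 8 did not pass (median -0.89, median span 102 kb). Of all genes of 100 to 200 kb 40.5% were lower. COL5A2, a fibrillar collagen, went from 1258, 1342 and 1412 to 265, 255 and 276, so that it fell by 2.27 (SE 0.07). COL4A6, of basement membranes, fell by 2.30 (SE 0.11), the integrin subunit ITGB1 fell by 0.86 (SE 0.04) and the matrix protein TGFBI fell by 1.18 (SE 0.05). LAMB3, a laminin chain of 37.6 kb, rose by 1.10 (SE 0.15).

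Cadherins, contactins and neuronal adhesion genes had a median span of 380 kb, and 9 of 27 fell (33.3%), 1 was higher and 17 did not pass. Of all genes of 200 to 500 kb 53.8% were lower, a larger share than in this list. CNTN1, contactin 1, went from 801, 941 and 978 to 83.5, 57.8 and 56.1, so that it fell by 3.51 (SE 0.11). NRCAM and the guidance receptor ROBO1 fell, with log2 changes of -2.33 (SE 0.11) and -2.58 (SE 0.18). CDH1, E-cadherin, fell by 1.50 (SE 0.10), from 398, 344 and 403 to 122, 126 and 126, and its other probe set did not pass (-0.47). EPCAM, another epithelial adhesion protein, rose by 1.76 (SE 0.11), from 165, 183 and 152 to 570, 724 and 525.

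Of the 10 markers of lung epithelium and of the line, 2 were higher, 5 lower (50%, against 17.4% of all genes) and 3 not past the test. The keratin KRT19 rose by 0.69 (SE 0.07), KRT7 fell by 0.67 (SE 0.09), and the membrane mucin MUC1 fell by 0.76 (SE 0.17). The desmosomal plakophilins were opposed, PKP3 at 1.11 and PKP2 at -1.13. Over the list of junctions and keratins 10 of 29 were higher, 9 lower and 10 not past the test.

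Of 17 phosphodiesterases, which degrade cyclic AMP and cyclic GMP, 8 were lower (47.1%) and 0 higher, with PDE8B at -2.42, PDE3A at -1.93 and PDE10A at -1.83. The median span of this list is 256 kb, and of all genes of 200 to 500 kb 53.8% were lower. Ubiquitin ligases of the HECT family and cullins were lower in 17 of 25 cases (68%) with 1 higher (median -0.55). Their median span is 130 kb, and of all genes of 100 to 200 kb 40.5% were lower. NEDD4 fell by 2.26 (SE 0.12), NEDD4L fell by 1.42 (SE 0.10) and CUL3 fell by 0.72 (SE 0.05), and CUL4A rose by 0.63 (SE 0.10). Of the 6 probe sets of NEDD4L, 1 was higher, at 0.75.

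In the Hippo pathway, which restrains the co-activators YAP1 and WWTR1, 11 of 19 fell (57.9%), 4 rose and 4 did not pass. The median span of this list is 81.3 kb, and of all genes of 50 to 100 kb 23% were lower. The upstream kinase STK3 fell by 3.17 (SE 0.14), WWTR1 fell by 1.66 (SE 0.06), YAP1 fell by 0.97 (SE 0.06) and their secreted target CCN2 fell by 1.60 (SE 0.11), whereas the DNA-binding partner TEAD4 rose by 1.05 (SE 0.12). CCN2 spans 3.2 kb. Of 23 TGF-beta genes 12 fell (52.2%) and 3 were higher. Their median span is 86.3 kb, in the same bin of 50 to 100 kb. The latent binding protein LTBP1 fell by 2.24 (SE 0.12). The receptors TGFBR3, TGFBR2 and BMPR2 fell, with log2 changes of -2.06 (SE 0.11), -1.15 (SE 0.08) and -1.37 (SE 0.10). SMAD3 rose by 0.63 (SE 0.14), and its other probe sets did not pass (0.26, -0.12 and 0.14).

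Of 25 Wnt pathway genes 13 fell (52%), 4 were higher and 8 did not pass. The median span of this list is 46.7 kb, and of all genes of 20 to 50 kb 12.6% were lower. The secreted antagonist DKK3 fell by 2.41 (SE 0.09) and GSK3B, a kinase of the beta-catenin destruction complex, fell by 1.88 (SE 0.09), while AXIN1, of the same complex, rose by 1.56 (SE 0.32) and the receptor FZD7 by 1.28 (SE 0.10). Of 22 growth factor receptors and RAS pathway genes 8 were lower (36.4%, against 17.4% of all genes) and 2 higher. Their median span is 96.1 kb. Of all genes, 23% of those of 50 to 100 kb and 40.5% of those of 100 to 200 kb were lower. EGFR fell by 1.38 (SE 0.21), with 5 of 8 probe sets lower and 3 not past the test, AXL fell by 1.08 (SE 0.08) and IGF1R fell by 1.03 (SE 0.09).

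Metabolic lists showed few shared directions. In a list of purine and pyrimidine genes, of synthesis, salvage and breakdown, 12 of 26 were higher and 8 lower. The 8 lower include a dihydropyrimidinase-like protein that is not a nucleotide enzyme. IMPDH2, of guanine nucleotide synthesis, rose by 1.10 (SE 0.06) and DPYD, which degrades pyrimidines, fell by 1.61 (SE 0.17). SREBF1, the master regulator of lipid synthesis, rose by 1.45 (SE 0.12), INSIG1, its inhibitor, by 0.79 (SE 0.07), and FASN, fatty acid synthase, by 0.93 (SE 0.14), while ACACA and ACSL1, an acyl-CoA synthetase, fell, with log2 changes of -1.29 (SE 0.13) and -2.07 (SE 0.10). The other probe set of ACACA was higher, at 0.41. Of 18 cholesterol synthesis genes 12 did not pass, with 16.7% higher and 16.7% lower, against 21.5% and 17.4% of all genes. SUCLG2, of the citric acid cycle, fell by 2.16 (SE 0.12), pyruvate carboxylase (PC) fell by 1.26 (SE 0.14) and the complex I subunit NDUFS4 fell by 1.16 (SE 0.07). Nuclear-encoded respiratory chain genes were higher in 5 and lower in 12 of 47 cases, and after median centring in 0 and 21.

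Among hypoxia and glycolysis genes 8 were higher (25%, against 21.5% of all genes), 8 lower (25%, against 17.4%) and 16 not past the test. VEGFA rose by 1.24 (SE 0.10) and ANKRD37 by 0.96 (SE 0.13), while HIF1A, the oxygen-regulated factor itself, and ADM, adrenomedullin, fell, with log2 changes of -0.71 (SE 0.06) and -0.98 (SE 0.09). In lysosome and autophagy genes 12 of 31 fell and 8 were higher. CTSB, cathepsin B, fell by 1.21 (SE 0.05), from 2769, 2696 and 2847 to 1116, 1224 and 1232, and ATG10 and ATG5 fell, with log2 changes of -2.31 (SE 0.11) and -1.05 (SE 0.06). SQSTM1, an autophagy receptor, rose by 1.13 (SE 0.08). The drug pump ABCC4 fell by 2.24 (SE 0.11), and CYP24A1, which inactivates vitamin D, rose by 1.26 (SE 0.10), as did CYP4F11 by 1.54 (SE 0.12).

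Transcription factor families were mixed as well. Of 16 Kruppel-like factors 8 were higher and 3 lower, with KLF5 at 1.27 and KLF4 at 0.98, both of epithelia, against KLF12 at -1.44. Among C/EBP, forkhead and ETS factors 9 were higher and 10 lower of 29: CEBPG and the epithelial ELF3 rose by 1.18 (SE 0.09) and 1.06 (SE 0.10), and FOXO3 fell by 1.58 (SE 0.10). Other probe sets of ELF3 did not pass (0.15 and 0.22). Of 18 clock genes 5 were higher (27.8%, against 21.5% of all genes) and 2 lower (11.1%, against 17.4%). CRY1 stood at 0.72, PER2 at 0.52 and NR1D2 at -0.84. In the cytoskeleton 15 of 33 actin, myosin and tubulin genes fell and 4 were higher. The non-muscle myosin MYH10 fell by 1.29 (SE 0.08) and tropomyosin TPM1 fell by 0.80 (SE 0.05). ACTB, beta-actin, was lower, with a log2 change of -0.16 (SE 0.05), a call lost in 5 alternatives, and GAPDH stood at -0.04 (-0.12 to 0.05) and did not pass.

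The promoter hexamer was found for smaller shares of the genes that changed than of all genes tested. Of 16358 genes tested, 12929 have a promoter in the RefSeq table used. TGTTCT or AGAACA, searched on both strands, was found in the 250 bases upstream of 8.45% of them and of 12.4% of all 27305 promoters in the table. It was found for 7.04% of the genes called higher, 6.67% of those lower and 9.53% of those not past the test, and for 7.44% of those lower at least 2-fold. Any of the 16 hexamers of the pattern was found for 35.5% of tested genes, 31.8% of those higher and 30.7% of those lower. Among 29 hormone-induced genes with a promoter, 13 held any of them and 2 held TGTTCT or AGAACA: PDK4, a brake on pyruvate oxidation, which fell by 1.12 (SE 0.08), and SERPINA3, an acute phase protein, which fell by 1.51 (SE 0.28). The median GC content was 65.2% for genes higher, 66% for genes lower and 62.4% for genes not past the test, so the windows also differed in base composition.

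Probe sets of the same gene could disagree. Of 8135 genes with 2 or more tested probe sets, 185 had probe sets called in opposite directions, and in 4 genes both changes were at least 2-fold. WWOX, a tumour suppressor at a fragile site, had 4 probe sets lower, between -2.53 and -1.12, and 1 higher, at 1.13. In ASCC3, a DNA helicase, the probe sets stood at -2.44 and 1.00, and in the desaturase gene SCD5 at -1.20 and 1.32. POLR1D, shared by RNA polymerases I and III, stood at 1.04 on the probe set with the highest signal and at -1.09 and -1.07 on 2 others. Such genes carry no single direction on these arrays.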

How the data were processed

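Biotin-labelled RNA of each sample was read on 1 Affymetrix array, 15 in all. The deposited values are linear signal intensities, 1 per probe set and array, which the authors made with MAS5 per the submitters' processing notes. Its version and scaling target are not stated there. As the arrays were not on one scale, intensities were brought to the same quantiles and put on a log2 scale after adding 16, so changes of low signals are understated. Probe sets above their array's 40th percentile on at least 3 of 15 arrays were tested, 39744 of 54675, leaving out 62 controls. In limma 3.58.1, 1 mean per group was estimated from the 15 arrays together (R 4.3.3; variance trend, 10 residual and 9.36 prior degrees of freedom), and p-values were Benjamini-Hochberg adjusted over all probe sets tested, with calls under 0.05. With 3 arrays in a group, precision is limited by their number. The fit was tested on simulated data.

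Symbols came from a platform annotation table. Genes are read by 1 probe set with their symbol alone, those not ending in _x_at first, then the highest mean. Members and lists were chosen with earlier results of these data known. The genes named come from the 25 most raised and 25 most lowered with separated arrays, in each list the 4 with the lowest adjusted p and those called against its majority, fixed genes (FKBP5, TSC22D3, DUSP1, KLF9, PER1, NR3C1, HSD11B2, CDKN1A, MDM2, ATF4, POLR2A, ACTB and GAPDH), the 10 longest, and those with opposite probe sets. Further names were chosen after their values were seen, and not every gene the rule yields is named (ribosomal proteins, proteasome subunits and others are not). A list and 1 more of the fixed genes are left out. Replicate numbers did not pair the arrays (correlations of deviations 0.035, -0.062 and 0.069). Alternatives changed the scaling, the added constant, the filter, the variance trend, the arrays fitted, the block, the probe set and each array in turn.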

Additional observations from a re-analysis of the deposited data

How the results depend on the processing

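The main count was 12252 probe sets, and leaving out 1 array gave 10809 to 11749. It was 7978 on the signals as deposited, where 3707 were lower. Median centring gave 3774 higher, and spike-in scaling 2668 lower. Counts higher at least 2-fold (main 814) were 532 with median centring, 1645 with spike-in scaling, 1513 with an added constant of 4 and 296 with 64, and counts lower at least 2-fold (main 1636) were 1024 with spike-in scaling and 751 with 64. Genes over 200 kb were lower in 79.4% of cases under the stricter filter (main 51.2), and those under 20 kb (main 6.82%) in 11.1%, in 3% as deposited and in 1.79% with spike-in scaling. Their medians differed by -0.66, by -1.71 among called genes, -0.39 without a filter, -1.26 under the stricter filter and -0.34 with 64. Direction changed for DUSP1 (0.0124) and KRT18 (0.0263) with spike-in scaling, CXCL2 (-0.0016) without a filter, SCD5 (1.32) when only the 6 arrays compared were fitted, where another probe set stood for it, and POLR1D (-1.07) by the median of its probe sets. Where no value of another probe set is given, the cause was not tested. Of 271 named genes that were called, 255 passed in the same direction in every alternative with a test. With the replicate number as a block, 12239 probe sets were called, and no call of a named gene was lost, while EGR1 and SGK1 passed. The numbers do not pair these arrays, so that fit stands as an alternative only. Median centring, trimmed-mean scaling or the deposited scale moved the medians of ribosomal proteins, NRF2 targets, heat shock proteins, purine enzymes, steroid receptors, methyltransferases and epithelial junctions across that of all genes.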

Other observations

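The families and genes below were chosen after their values were seen. Genes named ZNF, mostly zinc finger repressors, were higher in 149 and lower in 29 of 436 cases with a median log2 change of 0.27. Mitochondrial ribosomal proteins were higher in 37 and lower in 12 of 76 cases, but in 14 and 16 after median centring, and DDX helicases, which remodel RNA, were higher in 21 and lower in 1 of 34 cases (median 0.42). Genes of chromosome 19 had the highest median of the chromosomes, 0.21, with 29.7% of 1111 higher and 4.5% lower, and a median span of 15.1 kb. Of 1591 long non-coding RNA genes 6.47% were higher and 4.15% lower.

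ND6, the mitochondrial gene read from the light strand of the mitochondrial genome, went from 97.7, 114 and 137 with dexamethasone to 599, 503 and 541 with match polyamide and rose by 2.10 (SE 0.13). Groups that do not overlap were a condition of its place among the 25 most raised genes. Of the heavy-strand genes, ND2 (0.02), ND4 (-0.05), COX2 (0.01), ATP6 (0.07) and COX3 (0.20) did not pass, and COX1 was higher by 0.46 (SE 0.15), a call lost in 8 alternatives.

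Some genes ran against their length. Of 1152 genes over 200 kb, 590 were lower, 33 higher and 529 not past the test. GRAMD1B, a sterol transporter of 269 kb, rose by 1.53 (SE 0.09), from 171, 154 and 180 to 454, 548 and 547, and the helicase DDX10 by 1.01 (SE 0.09). Among genes under 10 kb, OLFML3, a secreted matrix protein of 2.78 kb, fell by 2.17 (SE 0.17), from 116, 94.9 and 88.3 to 10, 11 and 7.79, TMT1A fell by 2.11 (SE 0.20) and TRNP1 fell by 1.47 (SE 0.07). The nuclear RNA MALAT1 was lower, with a log2 change of -2.16 (SE 0.58), but its dexamethasone arrays were spread, at 1739, 1566 and 399 against 397, 176 and 148.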
